A study of Mus musculus with 8 samples.

Results

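Integrins are the adhesion receptors with which cells hold on to matrix and to each other, and 8 of their genes were followed here together with a selectin ligand and a Siglec that mark microglia. The 10 genes were taken by name: Itgam, Itgal and Itgb2 (leukocyte integrins of the beta 2 class), Selplg and Siglech (surface glycoproteins of myeloid cells), and Itgb1, Itgav, Itga6, Itgb5 and Itga4 (integrin subunits used by many cell types). They are 10 of the 20692 genes in the deposited tables. RNA was sequenced from tdTomato-positive cells sorted from punches of both central amygdalae of unchallenged male mice. In 4 libraries (PKCd 1 to 4) the reporter, a Rosa::loxP-STOP-loxP-td-Tomato allele, was opened by the transgene PKC delta-type::Cre (an MMRRC line). In the other 4 (SST 1 to 4) the same allele was opened by SST::Cre, so the libraries of both populations come from reporter mice that carry a Cre. PKCd 1 and PKCd 2 came from 9-week and PKCd 3 and PKCd 4 from 18-week mice, and SST 1 and SST 2 came from 8-week and SST 3 and SST 4 from 20-week mice. Each library held about 1000 cells of 1 mouse. The reporter records any Cre activity in the history of a cell, which is a limit of such lines.

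Each integrin is a pair of an alpha and a beta chain, and the pair sets what it binds. The beta 2 chain, encoded by Itgb2, pairs with alpha M (Itgam, also CD11b) to form complement receptor 3, which microglia use in taking up complement-tagged material, and with alpha L (Itgal, CD11a) to form LFA-1, the ICAM receptor of lymphocytes and other blood leukocytes. The beta 1 chain pairs with many alpha chains to bind laminin, fibronectin and collagen in nearly every tissue, and alpha V with beta 5 binds vitronectin. PSGL-1, the product of Selplg, is a ligand of selectins on leukocytes. Siglec H, the product of Siglech, is a surface protein of the Siglec family found in the brain on microglia. It signals through the adaptor DAP12.

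The libraries held RNA of several cell types. Prkcd had 106 to 226 TPM (transcript abundance scaled to length and library) in the PKCd libraries and 0 to 30.2 in the SST libraries, and Sst had 116 to 296 TPM in the SST libraries. Sst stood at 0.209, 4.32 and 13.7 TPM in PKCd 1, PKCd 3 and PKCd 4, and at 223 TPM in PKCd 2. The summed level of 15 microglial markers, all of them detected, was 31732 to 57111 TPM in the PKCd libraries and 508 to 6830 TPM in the SST libraries (SST 1 the highest, SST 4 the lowest). For 14 of the 15 the lowest PKCd library was above the highest SST library, beside 3.88% of all genes tested. Summed neuronal markers had 108 to 573 TPM in the PKCd and 118 to 507 TPM in the SST libraries. Summed oligodendrocyte markers had 11707 to 29628 and 10181 to 59654 TPM. Library totals were 10316149 to 18242496 estimated counts in the 8 to 9 week libraries and 964361 to 2522749 in the 18 to 20 week libraries. Age class, depth and the flow cell in the names of the deposited files fall together and cannot be told apart.

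Promoters of 6 of the 10 genes are in the RefSeq table used (GRCm38.p6). Those of Itgam and Siglech, whose levels separated the populations, and of Itgb1 and Itgb5, whose levels overlapped, are shown as windows of 250 bases before to 50 after the start. Capitals mark GAGGAA, the core of sites bound by PU.1, a transcription factor of myeloid cells, and GGGCGG, the core of the GC box bound by Sp1, each on either strand (TTCCTC and CCGCCC on the other). The windows lie on the plus strand at chr7:128062390-128062689 (Itgam), chr7:55767934-55768233 (Siglech), chr8:128685404-128685703 (Itgb1) and chr16:33829415-33829714 (Itgb5).
Itgam: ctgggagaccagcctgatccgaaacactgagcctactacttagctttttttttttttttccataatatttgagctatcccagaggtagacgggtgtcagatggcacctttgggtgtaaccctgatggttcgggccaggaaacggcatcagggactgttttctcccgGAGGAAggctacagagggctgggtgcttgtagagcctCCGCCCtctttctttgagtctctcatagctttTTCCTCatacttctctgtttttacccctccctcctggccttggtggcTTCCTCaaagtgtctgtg
Siglech: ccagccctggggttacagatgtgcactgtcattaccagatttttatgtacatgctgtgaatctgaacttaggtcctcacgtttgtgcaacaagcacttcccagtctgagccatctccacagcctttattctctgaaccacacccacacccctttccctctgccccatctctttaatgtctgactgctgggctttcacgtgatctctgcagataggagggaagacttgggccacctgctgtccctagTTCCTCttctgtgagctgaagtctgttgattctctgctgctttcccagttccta
Itgb1: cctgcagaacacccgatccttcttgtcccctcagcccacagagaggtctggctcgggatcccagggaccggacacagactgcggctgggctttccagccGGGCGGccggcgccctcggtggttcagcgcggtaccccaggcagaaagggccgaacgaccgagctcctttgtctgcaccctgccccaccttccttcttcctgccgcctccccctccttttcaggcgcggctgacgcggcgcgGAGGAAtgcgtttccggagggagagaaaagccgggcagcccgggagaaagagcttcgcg
Itgb5: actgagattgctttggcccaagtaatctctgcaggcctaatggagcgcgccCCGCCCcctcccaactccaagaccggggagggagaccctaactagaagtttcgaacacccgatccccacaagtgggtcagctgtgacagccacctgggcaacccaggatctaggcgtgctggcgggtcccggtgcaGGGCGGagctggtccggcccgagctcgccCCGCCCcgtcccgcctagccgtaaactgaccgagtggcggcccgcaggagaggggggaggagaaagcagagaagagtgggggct
Itgam had 6 and Siglech 2 CpG dinucleotides, while Itgb1 had 27 and Itgb5 20, and the median of 32851 promoter windows was 7. Itgav with 24 and Itga4 with 10 were also above that median. GAGGAA was found 3 times in the Itgam window and 1 time in that of Siglech, beginning 4 bases before its start. It was also found 1 time in the Itgb1 window, beginning 9 bases before the start, and 2 times in that of Itgav, and it was not found in those of Itgb5 and Itga4. Of all windows, 28.3% hold GAGGAA, and 13.6% hold the longer GAGGAAG, which was found 2 times in Itgam (inside 2 of its 3 GAGGAA matches) and 1 time in Itgav. GGGCGG was found 3 times in Itgb5 and 1 time each in Itgam, Itgb1, Itgav and Itga4, and it is held by 35.7% of all windows. TATAAA was found in none of the 6 windows and in 13.6% of all. A match is a description of the letters and shows no binding.

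Most of the 10 genes fell into 2 patterns. Itgam, Itgb2, Selplg and Siglech were far higher in the PKCd libraries, with means 19.1 to 25.7 times those of the SST libraries, while Itgb1, Itgav and Itga4 overlapped between the populations. Itga6 and Itgb5 lay between the patterns, and Itgal was too low to be placed. In the quasi-likelihood test of edgeR with Benjamini-Hochberg adjustment over 11328 genes, 9 of the 10 genes were tested. 1 of the 9, Selplg, was higher in PKCd libraries at an adjusted p under 0.05, beside 0.282% of all genes tested (32 genes), and 0 of the 9 were lower, beside 0.0% of all genes. At an unadjusted p under 0.05 the count was 6 of the 9, beside 6.67% of all genes (756 genes). The median log2 fold change (PKCd minus SST) was 2.53 over the 9 genes and -0.08 over all genes tested.

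The count depended on the test. DESeq2 called 6 of the 9 higher (Itgam, Itgb2, Selplg, Siglech, Itga6 and Itgb5), beside 3.2% of all genes. limma on log2(TPM + 1) called 4 higher (Itgam, Itgb2, Selplg and Siglech), beside 1.05% of 12945 genes. For 5 of the 9 (Itgam, Itgb2, Selplg, Siglech and Itga6) all 4 PKCd libraries were above all 4 SST libraries in TPM, beside 3.88% of all genes tested. No gene of the 9 had all 4 PKCd libraries lower, beside 3.05% of all genes.

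Selplg (chromosome 5, 113817798 to 113832528) was the most abundant of the 10 genes in the PKCd libraries. Its level was 1554, 1062, 2162 and 1213 TPM in PKCd 1 to 4 and 98.1, 75.9, 42.2 and 16.9 TPM in SST 1 to 4. Every PKCd library was above every SST library, and the lowest PKCd value was over 10 times the highest SST value. The means were 1498 ± 488 and 58.3 ± 35.9 TPM (SD, n = 4 each). Selplg rose in the PKCd libraries by 4.87 ± 0.67 (SE) on the log2 scale (edgeR, adjusted p 0.0161), and 221 of the 11328 genes had a larger fold change. The call ended without SST 2 (adjusted p 0.0510) and without SST 3 (adjusted p 0.0894).

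Siglech (chromosome 7, 55768154 to 55779448) had 667, 759, 777 and 361 TPM in PKCd 1 to 4. It had 92.9, 5.71, 27.0 and 8.57 TPM in SST 1 to 4. The populations did not overlap, and SST 1 was the highest of the SST libraries for this gene, as it was for the microglial markers. The log2 fold change was 4.33 ± 0.92 (SE), which did not pass the adjustment in edgeR (adjusted p 0.110). Without SST 1 it was 5.89 and passed (adjusted p 0.0139).

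Itgam (chromosome 7, 128062640 to 128118491), the alpha chain of complement receptor 3, had 104, 95.9, 106 and 66.1 TPM in PKCd 1 to 4 and 12.1, 0.711, 2.60 and 0.841 TPM in SST 1 to 4. The PKCd libraries lay close together and all above the SST libraries, and SST 1 again held the highest SST value. The SST values rest on 612, 29, 11 and 6 reads. The log2 fold change was 4.66 ± 1.00 (SE; edgeR, adjusted p 0.114). It was 6.41 without SST 1, with an adjusted p of 0.0123.

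Itgb2 (chromosome 10, 77530329 to 77565708), the beta chain that Itgam needs at the surface, had 99.0, 70.6, 209 and 183 TPM in PKCd 1 to 4. It had 9.68, 0.246, 1.59 and 14.6 TPM in SST 1 to 4, and the populations did not overlap. The SST values rest on 290, 6, 4 and 62 reads. Unlike Itgam and Siglech, Itgb2 had its highest SST value in SST 4. In that library the microglial markers had their lowest sum, and Ccr2, a chemokine receptor of blood monocytes, had 67.3 TPM against 0 to 1.04 TPM in the other 7. The summed level of 13 blood leukocyte markers was 75.05 TPM in SST 4, most of it from Ccr2 alone. That sum was higher, 199 TPM, in SST 3, where Itgb2 stood at 1.59 TPM. The part of such cells in the Itgb2 level was not tested. Between populations the log2 fold change of Itgb2 was 4.15 ± 1.08 (SE; edgeR, adjusted p 0.242). Without SST 1 it was 5.76 (adjusted p 0.125).

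Itgal (chromosome 7, 127296139 to 127335137), the alpha chain of LFA-1, was at 0 in all 4 PKCd libraries and in SST 1, SST 2 and SST 3. A single read in SST 4, divided over 4 targets, gave 0.125 TPM. Itgal was too low to be tested, and its zeros leave room for 3 counts per library, equal to 0.164 CPM (counts scaled to the library total) in the deepest and 3.11 CPM in the shallowest. Of the beta 2 chain's alpha partners only Itgam was found above 3 TPM, in PKCd 1 to 4 and SST 1. Itgax (CD11c) had 0 to 0.459 TPM and Itgad (CD11d) 0 to 2.81 TPM over the 8 libraries. In SST 3 and SST 4 Itgad, at 2.81 and 1.83 TPM, was above Itgam, at 2.60 and 0.841 TPM. These values rest on 10 and 11 reads of Itgad and 11 and 6 reads of Itgam, too few to set their order. In SST 1 and SST 2 Itgam was the higher. Itgax and Itgad, and the level of 3 TPM, were chosen after the values were seen.

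**Figure D1:**
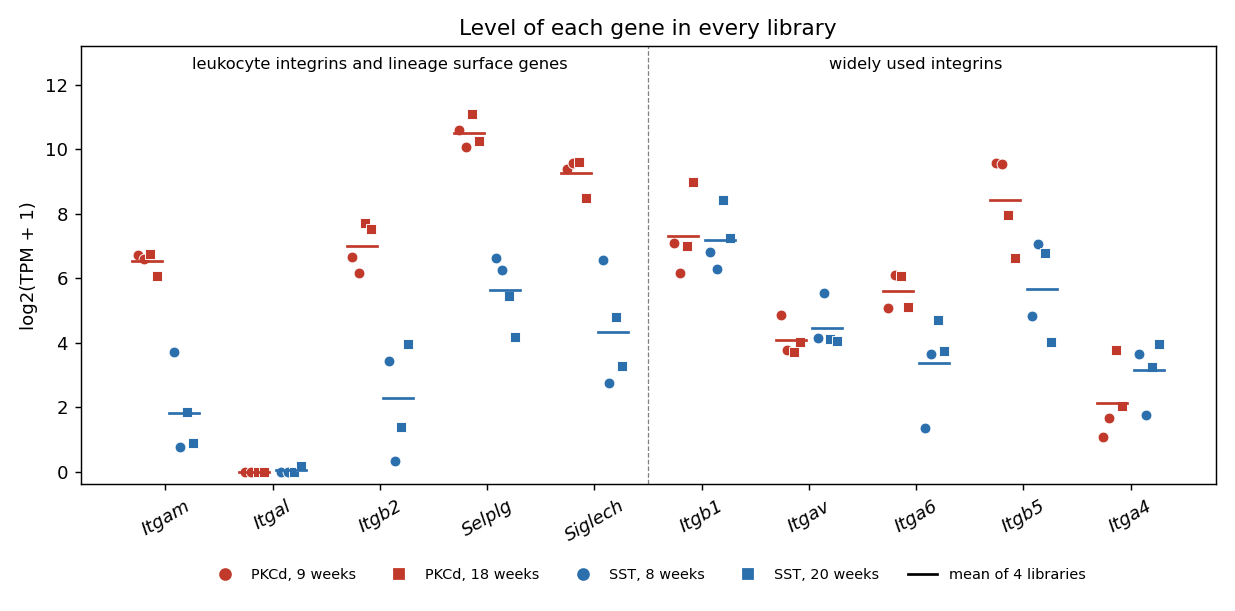
Level of each of the 10 genes in each of 8 libraries on a log2(TPM + 1) axis, with PKCd libraries in red, SST libraries in blue, circles for the younger and squares for the older mice, and lines for means of 4 libraries. Itgam, Itgb2, Selplg, Siglech and Itga6 have all red points above all blue points, and the other genes overlap.

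The widely used chains showed no such separation, with Itga6 as the exception. Itgb1 (chromosome 8, 128685654 to 128733579), the common beta chain, had 134, 70.3, 126 and 507 TPM in PKCd 1 to 4. It had 112, 76.5, 341 and 151 TPM in SST 1 to 4. The ranges overlapped over most of their length, and PKCd 4 was the highest of all 8. The log2 fold change was 0.21 ± 0.54 (SE; edgeR, adjusted p 0.978), and without PKCd 4 its sign turned (-0.31, adjusted p 0.964). An interval of 1 SE on each side thus spans both directions, and the miss of the threshold does not show equal levels.

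Itgav (chromosome 2, 83722303 to 83806917), the alpha chain of the vitronectin receptors, had 27.8, 12.7, 12.1 and 15.4 TPM in PKCd 1 to 4 and 16.6, 45.7, 16.2 and 15.5 TPM in SST 1 to 4. Apart from SST 2 and PKCd 1, the libraries stood within 12.1 to 16.6 TPM. Between populations Itgav had a log2 fold change of -0.35 ± 0.56 (SE; edgeR, adjusted p 0.959).

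Itgb5 (chromosome 16, 33829665 to 33949338), a beta chain that pairs with alpha V, had 764, 749, 246 and 97.9 TPM in PKCd 1 to 4. It had 27.3, 131, 109 and 15.3 TPM in SST 1 to 4. PKCd 4 lay below SST 2 and SST 3, so the populations overlapped, and both 9-week PKCd libraries were above both 18-week ones. The means were 464 ± 343 and 70.7 ± 58.0 TPM (SD, n = 4 each), and the log2 fold change was 2.53 ± 0.73 (SE; edgeR, adjusted p 0.302). Among the widely used chains it was the most abundant in the PKCd libraries, at 6.57 times its SST mean, while its partner Itgav stood at 0.722 times its SST mean.

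Itga6 (chromosome 2, 71786886 to 71858427), an alpha chain of laminin receptors, had 32.9, 67.7, 66.0 and 33.5 TPM in PKCd 1 to 4 and 1.55, 11.7, 24.7 and 12.3 TPM in SST 1 to 4. All 4 PKCd libraries were above all 4 SST libraries, with 3.98 times the SST mean. The log2 fold change was 2.35 ± 0.72 (SE), which did not pass in edgeR (adjusted p 0.367). Of 20 alternative settings and left-out libraries only DESeq2 called it (adjusted p 0.0344).

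Itga4 (chromosome 2, 79255426 to 79333114), the alpha 4 chain with which leukocytes bind VCAM-1, was low. It had 1.12, 2.18, 12.7 and 3.07 TPM in PKCd 1 to 4 and 11.6, 2.40, 8.49 and 14.5 TPM in SST 1 to 4. The ranges overlapped, with PKCd 3 as the high PKCd library and SST 2 as the low SST library. Its log2 fold change was -1.41 ± 1.03 (SE; edgeR, adjusted p 0.881), and it was -0.41 without SST 1 and -2.15 without PKCd 3.

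**Figure D2:**
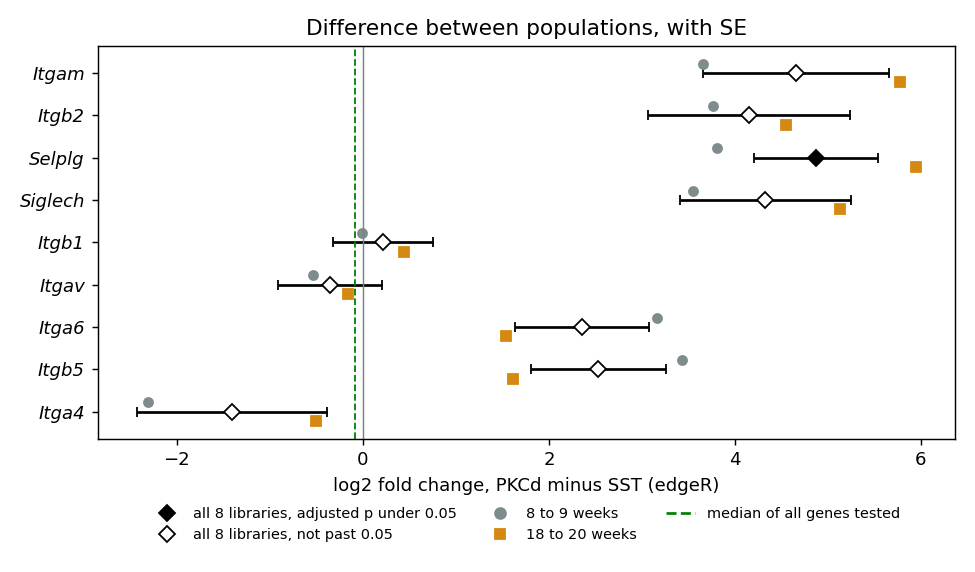
Log2 fold change (PKCd minus SST) of the 9 tested genes in edgeR, with SE bars for all 8 libraries (filled diamond where the adjusted p is under 0.05), circles and squares for the younger and older mice, and a dashed line at the median of all genes tested (-0.08). Itgam, Itgb2, Selplg and Siglech sit above 4, Itga6 and Itgb5 near 2.5, and Itgb1, Itgav and Itga4 around or below 0.

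The order of mean levels differed between the populations. In the PKCd libraries it ran from Selplg over Siglech, Itgb5, Itgb1, Itgb2, Itgam, Itga6, Itgav and Itga4 to Itgal. Neighbours whose ranges did not overlap were Selplg and Siglech, Itga6 and Itgav, and Itga4 and Itgal, and the other neighbours overlapped in range, although Itgam was above Itga6 within each of the 4 libraries. In the SST libraries Itgb1 came first (170.2 ± 118 TPM), then Itgb5, Selplg, Siglech, Itgav, Itga6, Itga4, Itgb2, Itgam and Itgal. There only Itgam and Itgal did not overlap. By mean level, Selplg and Siglech were thus the most abundant genes of the 10 in one population, and Itgb1 and Itgb5 in the other. Single libraries differed: Itgb5 was above Selplg in 2 of the 4 SST libraries, and Siglech above Itgb5 in 3 of the 4 PKCd libraries.

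The mix of chains within a library was compared through the ratio of Itgb2 to Itgb1. The ratio of TPM was 0.739, 1.00, 1.65 and 0.361 in PKCd 1 to 4 and 0.0864, 0.00321, 0.00466 and 0.0965 in SST 1 to 4. In SST 2 and SST 3 the ratio rests on 6 and 4 reads of Itgb2. As log2((Itgb2 TPM + 1)/(Itgb1 TPM + 1)) the ratio was -0.29 ± 0.91 in the PKCd and -4.92 ± 1.88 in the SST libraries (SD, n = 4 each). The difference of 4.63 had a two-sided exact permutation p of 0.0286, the smallest that 70 arrangements of 4 against 4 can give. It was 5.29 with a pseudocount of 0.1 TPM and 5.30 from estimated counts, each with the same exact p. It was 4.47 in the younger and 4.80 in the older mice and ran from 3.93 to 5.18 with each library left out. The ratio was the single one tested, and it was chosen with earlier results known. Itgb2 by itself already separated the populations, so the p of the ratio is no separate support. The permutation took no account of age class.

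Shares of the summed beta and alpha chains show the same mix without a test. Of the TPM of 8 beta genes, Itgb1 held 26.5 ± 25.3% in the PKCd and 66.0 ± 20.5% in the SST libraries (SD, n = 4 each). Its shares overlapped, with 7.78 to 63.5% in the PKCd and 35.8 to 81.2% in the SST libraries. Itgb2 held 7.82 to 35.7% and 0.115 to 7.84%, and the highest SST share (7.84%, SST 4) just passed the lowest PKCd share (7.82%, PKCd 2). Itgb5 held 53.1 ± 32.4% and 27.7 ± 23.3%, with 82.9% in PKCd 2 and 12.3% in PKCd 4. Of the TPM of 18 alpha genes, Itgam held 33.5 to 51.9% in the PKCd and 0.480 to 12.6% in the SST libraries. Itga6 held 16.3 to 36.7% and 1.61 to 11.1%. The 13 alpha genes outside the 10 held 3.40 to 40.2% and 56.4 to 76.8%.

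**Figure D3:**
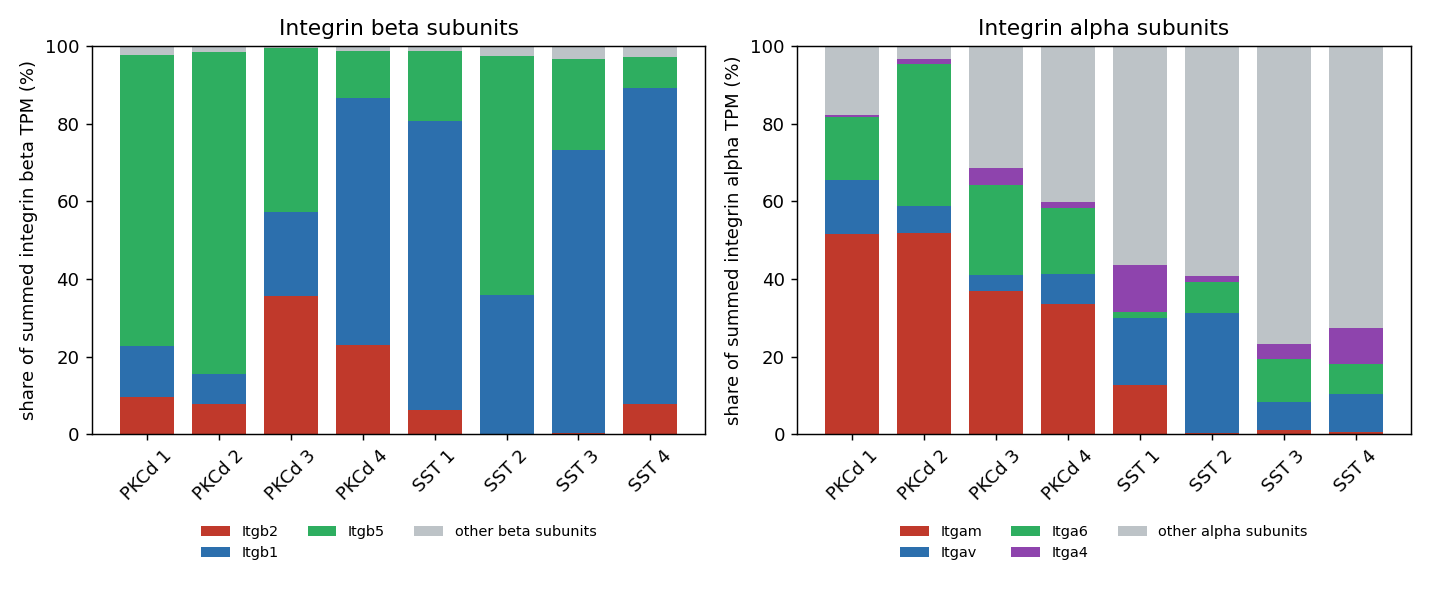
Share in percent of the summed TPM of 8 integrin beta genes (left) and 18 integrin alpha genes (right) in each of the 8 libraries, as bars stacked to 100%. Itgam holds 33.5 to 51.9% of alpha TPM in PKCd libraries and at most 12.6% in SST libraries. Itgb1 holds 7.78 to 63.5% of beta TPM in PKCd libraries and 35.8 to 81.2% in SST libraries, and these ranges overlap.

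Like the genes that separated the populations, the summed microglial markers were higher in every PKCd library than in any SST library. Among the SST libraries Selplg, Siglech and Itgam were highest in SST 1, as was the marker sum. Itga6 was lowest in SST 1 (1.55 TPM), and Itgb2 was highest in SST 4, where the marker sum was lowest. Each gene was set against the marker sum of the same library as a description. In bulk samples fewer cells of a type and less RNA per cell cannot be told apart. Per 1000 TPM of the 15 markers, none of which is among the 10 genes, Selplg had 33.5 to 37.9 TPM in the PKCd and 14.4 to 40.4 TPM in the SST libraries. Siglech had 10.3 to 23.9 and 3.04 to 16.9 TPM. These ranges overlapped, although the TPM of both genes did not.

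Itgam had 1.85 to 3.02 TPM per 1000 marker TPM in the PKCd and 0.378 to 1.78 TPM in the SST libraries, which stays without overlap by a small gap. Itgb2 had 2.22 to 5.24 TPM in the PKCd and 0.131, 0.996, 1.42 and 28.7 TPM in the SST libraries, the last in SST 4. In SST 4 Selplg had 33.4, Siglech 16.9 and Itgam 1.66 TPM on the same scale. Itgb1 had 2.21 to 14.5 TPM in the PKCd and 16.4 to 298 TPM in the SST libraries. The mean marker sum was 41185 TPM in the PKCd and 2703 TPM in the SST libraries, so a gene with like TPM in both comes out lower per marker TPM in the PKCd libraries by construction. Itgav (0.212 to 0.679 against 2.44 to 30.6 TPM) and Itga4 (0.0273 to 0.223 against 1.28 to 28.6 TPM) were also lower per marker TPM in all 4 PKCd libraries. Itga6 and Itgb5 overlapped.

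**Figure D4:**
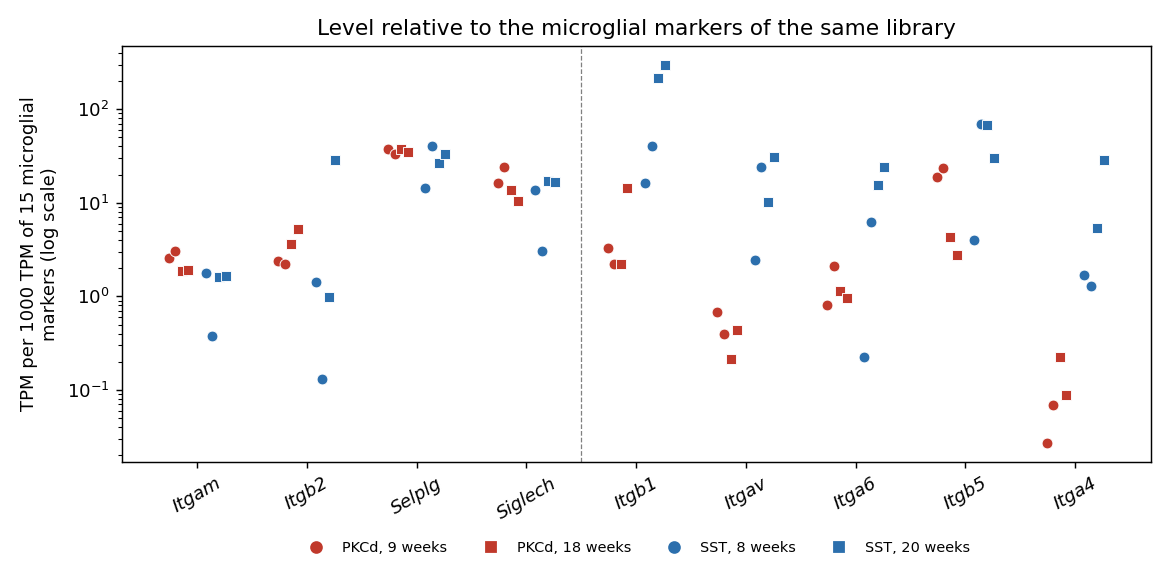
TPM of each of 9 genes per 1000 TPM of 15 microglial markers in the same library, on a log axis, with PKCd libraries in red, SST libraries in blue, circles for the younger and squares for the older mice. Selplg and Siglech overlap between populations, and Itgb1, Itgav and Itga4 are lower in all 4 PKCd libraries.

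Markers of other cell types that use these chains were also summed. Border macrophage markers (8 genes) summed to 36.5 to 593 TPM in the PKCd libraries, the highest in PKCd 2, and to 0.111 to 3.88 TPM in the SST libraries. Pf4 had 12.4, 382, 35.6 and 56.4 TPM in PKCd 1 to 4, and Mrc1 had 0.619, 19.5, 1.69 and 0 TPM. Their defining members Pf4, Cbr2 and Ms4a7 were at 0 in all 4 SST libraries and Lyve1 in all 4 PKCd libraries. 2 of 8 were higher in all 4 PKCd libraries, beside 3.88% of all genes tested. Markers of other blood leukocytes (13 of 14 genes matched) summed to 4.49 to 14.8 TPM in the PKCd and 0.963 to 199 TPM in the SST libraries, and none separated the populations. Cd79a, Ms4a1, Ncr1, Nkg7 and S100a8 were at 0 in all 4 PKCd libraries, and 6 of the 13, among them Cd3e, Cd79a, Ms4a1, Ncr1 and Flt3, in all 4 SST libraries. Endothelial markers, of cells that use Itgb1 and Itga6, summed to 264 to 4502 TPM in the PKCd and 31.1 to 4103 TPM in the SST libraries. Mural markers summed to 103 to 3754 and 2145 to 10669 TPM, and astrocyte markers to 344 to 3911 and 2652 to 6886 TPM. The part of these cells in the levels of the 10 genes was not tested.

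Within age classes, the genes that separated the populations had the same direction. That follows from every PKCd library lying above every SST library and is no separate support. In the model with 4 cells, 1 of the 9 genes, Selplg, was called higher at 18 to 20 weeks (log2 fold change 5.94 ± 0.86 SE, edgeR adjusted p 0.0476), beside 0.0706% of all genes. A fit on the 18 to 20 week libraries alone lost that call (Selplg 5.93, edgeR adjusted p 0.113), and it called 0 of 9791 genes. At 8 to 9 weeks the count was 0 of 9, beside 0.0% of all genes (Selplg 3.81 ± 0.77 SE, edgeR adjusted p 0.198). Younger and older log2 fold changes were 3.65 and 5.78 for Itgam, 3.76 and 4.55 for Itgb2, and 3.55 and 5.13 for Siglech. For Itgb5 they were 3.44 and 1.62, and for Itga6 3.16 and 1.54. Itgb1 had -0.01 and 0.44, Itgav -0.54 and -0.16, and Itga4 -2.31 and -0.50. Apart from Selplg at 18 to 20 weeks, none of the 9 genes passed in either class. The difference between classes was called for 0 of 9 genes in edgeR, beside 0.0% of all genes (467 genes at an unadjusted p under 0.05, 0 of them among the 9). For Selplg the interaction was 2.13 ± 0.99 (SE), with an adjusted p of 1.00.

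Older and younger mice were compared in the same edgeR fit. 0 of the 9 genes were called, beside 0.053% of all genes, and 1 of the 9, Itgb1, had an unadjusted p under 0.05. The log2 fold changes (older minus younger) ran from -1.43 (Itgam and Itgb5) to 1.20 (Itgb1), and the lowest adjusted p, that of Itgb1, was 0.596.

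Other genes of integrin adhesion were read from 6 lists of named genes, as counts beside the background of 0.282% higher and 0.0% lower. Kindlins, talins and kinases that activate integrins or signal from them gave 2 of 24 tested genes higher and 0 lower, with a median log2 fold change of 0.36. Fermt3 (kindlin-3, the kindlin of blood cells, which activates beta 2 integrins) had 136, 123, 208 and 141 TPM in PKCd 1 to 4 and 0.886 to 1.69 TPM in the SST libraries. It rose in PKCd libraries by 6.88 ± 0.66 (SE) on the log2 scale (edgeR, adjusted p 0.00407). The kindlin of other tissues, Fermt2, had a log2 fold change of -1.01 ± 0.41 (SE; edgeR, adjusted p 0.632), with 79.4 to 215 TPM in the PKCd and 159 to 376 TPM in the SST libraries. Integrin-linked kinase (Ilk, -0.38), its partner Lims1 (-0.24) and the small GTPase Rap1b (-0.02) did not pass either. In 8 of the 24 all 4 PKCd libraries were above all 4 SST libraries and in 1 they were below, beside 3.88% and 3.05% of all genes tested.

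Integrin subunits outside the 10 gave 0 of 8 tested genes higher and 0 lower, with a median of 1.33, and all 8 overlapped. The most abundant was Itga1, a collagen receptor chain, with 0.465 to 59.2 TPM in the PKCd and 20.6 to 64.9 TPM in the SST libraries. Itga8, a chain of matrix receptors, had 0 to 1.84 TPM in the PKCd and 1.42, 39.5, 6.06 and 48.3 TPM in the SST libraries. Its log2 fold change was -4.78 ± 1.64 (SE; edgeR, adjusted p 0.467).

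Ligands of integrins gave 0 of 23 tested genes higher and 0 lower, with a median of -0.12. In 2 of the 23 all PKCd libraries were above the SST libraries, beside 3.88% of all genes tested. Vtn (vitronectin, bound by alpha V with beta 5 and also a mural marker) had 556, 47.4, 2862 and 2259 TPM in PKCd 1 to 4 and 6752, 1652, 7753 and 5757 TPM in SST 1 to 4. Its log2 fold change was -2.71 ± 0.95 (SE; edgeR, adjusted p 0.477). Mfge8, a bridge from dying cells to alpha V integrins, had 94.0 to 919 TPM in the PKCd and 382 to 2819 TPM in the SST libraries. F11r (JAM-A, a junction protein bound by LFA-1) had 192 to 441 TPM in the PKCd and 18.1 to 102 TPM in the SST libraries, and it missed the threshold at a log2 fold change of 2.85 ± 0.53 (SE; edgeR, adjusted p 0.0621).

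Selectins and the enzymes that build their ligands, which act on PSGL-1, gave 0 of 6 tested genes higher and 0 lower, with a median of 2.03. In 1 of the 6 all PKCd libraries were above the SST libraries, beside 3.88% of all genes tested. Tpst2, a tyrosine sulfotransferase, had 33.6 to 145 TPM in the PKCd and 5.23 to 45.8 TPM in the SST libraries. St3gal6, a sialyltransferase, had 14.8 to 536 and 0 to 322 TPM. Other Siglecs and the adaptors of Siglec H gave 0 of 5 tested genes higher and 0 lower, with a median of 3.70. In 3 of the 5 all PKCd libraries were above the SST libraries, beside 3.88% of all genes tested. Tyrobp (DAP12, the adaptor of Siglec H) had 3902, 2239, 3031 and 1604 TPM in PKCd 1 to 4 and 831, 286, 144 and 17.1 TPM in SST 1 to 4. The populations did not overlap, and the log2 fold change was 3.60 ± 0.89 (SE; edgeR, adjusted p 0.200). Cd33, a Siglec of myeloid cells, had 19.7 to 90.9 and 0.0480 to 9.46 TPM. Mag, a Siglec of myelin, overlapped with a log2 fold change of -0.03.

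Other myeloid and tetraspanin surface genes gave 2 of 19 tested genes higher and 0 lower, with a median of 3.11. Laptm5, a lysosomal membrane protein of blood cells, had 873 to 2543 TPM in the PKCd and 23.1 to 233 TPM in the SST libraries and rose by 4.72 ± 0.76 (SE; edgeR, adjusted p 0.0309). Vsir, which encodes the checkpoint protein VISTA, had 189 to 247 and 2.29 to 18.6 TPM and rose by 4.71 ± 0.65 (SE; edgeR, adjusted p 0.0161). Neither call held without SST 3 or without SST 4, and that of Laptm5 also ended without SST 1, PKCd 1, PKCd 3 or PKCd 4. The widely expressed tetraspanins Cd81 (log2 fold change -0.53) and Cd63 (-0.99) did not pass, although Cd63 was below in all 4 PKCd libraries. In 12 of the 19 all 4 PKCd libraries were above all 4 SST libraries and in 1 they were below, beside 3.88% and 3.05% of all genes tested. The microglial marker sum was also higher in every PKCd library than in any SST library, and its part in these genes was not tested.

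**Figure D5:**
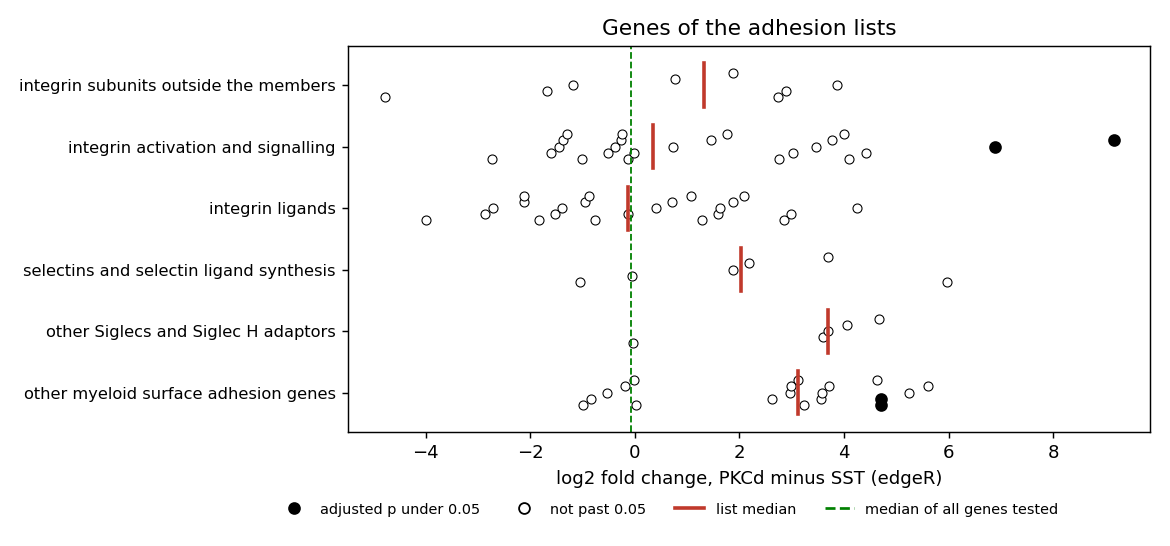
Log2 fold change (PKCd minus SST, edgeR) of the tested genes in 6 adhesion lists, 1 point per gene, filled where the adjusted p is under 0.05, with red lines at list medians and a dashed line at the median of all genes tested. Filled points are 2 among activation and signalling genes, Fermt3 being one, and Laptm5 and Vsir among myeloid surface genes.

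The genes most like 3 of the 10 in pattern were taken by Pearson's r of log2(TPM + 1) over the 8 libraries among 7973 genes, as a description, since all points share depth and the population difference. For Itgam they were Pon3, Ncf1, Ptgs1 and Adgre1 (r = 0.99 for each). Ncf1 is a subunit of the phagocyte NADPH oxidase, and Adgre1 encodes the macrophage surface protein F4/80. For Itgb2 they were Efr3b, Rac2, Nrros and Ssh2 (r = 0.97 to 0.98), of which Rac2 is the Rac GTPase of blood cells. Rac2 shared the raised SST 4 value, with 14.9 TPM there against 2.47 to 6.50 TPM in the other SST libraries. For Itgb5 they were Ppp1r18, Rhob, Map11 and Csnk1e (r = 0.95 to 0.98). Rhob, a small GTPase of endosomes, had 190.3 and 156 TPM in PKCd 1 and PKCd 2 and 74.2 and 60.5 TPM in PKCd 3 and PKCd 4, the same order as Itgb5.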

How the data were processed

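RNA of 8 libraries of sorted cells was analysed, 1 mouse each, so p-values cover the spread between mice together with sorting and amplification. The authors deposited, per RefSeq transcript, an estimated count and a TPM value; the column names are kallisto's, per the file headers. kallisto 0.43.0, BWA 0.7.12 and mm10 stand in the submitters' processing notes, with no word on what BWA did. Deposited TPM values are scaled to transcript length and to 1 total per library by the authors' tool, so they keep no depth, and abundant transcripts lower the others. kallisto divides reads among isoforms, and strand use is not given.

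Both units were summed per gene symbol (30080 of 30404 targets named from the RefSeq table of GRCm38.p6, 147 from GENCODE, 177 by accession alone), and estimated counts were rounded. The 10 genes matched 16 targets. Counts were tested with edgeR 4.0.16 in R 4.3.3 (quasi-likelihood F test, TMM, default filter by population, terms for age class and population, threshold 0.05), and the SE is from the F statistic. A model with 4 cells gave values within age classes and the interaction. All was fitted on the whole table and tested on simulated data. The ratio was tested by exact permutation in scipy 1.17.1. 1 read equals 0.0548 CPM in PKCd 1, the deepest library, and 1.04 CPM in PKCd 3, the shallowest. Such floors cover counting error alone, because reads of amplified cDNA do not count molecules.

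Alternatives were DESeq2 1.42.0, limma 3.58.1 (voom, log2(TPM + 1), log2(TPM + 0.1)), RLE and upper quartile scaling, no filter or one of 10 CPM in at least 4 libraries, a model with no age term or with a replicate block, the libraries of 1 age class, and omission of each library in turn. The genes and lists were chosen with earlier results of these data known. Named are all 10 genes, list genes past the threshold with up to 4 more of the highest mean TPM per list, and for Itgam, Itgb2 and Itgb5 the 4 genes most like them with a mean of at least 10 TPM. The 6 adhesion lists matched all genes listed but 1 of the myeloid surface list. Protein features were not analysed here, and 1 list gene past the threshold is not reported here.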

Additional observations from a re-analysis of the deposited data

Results flagged for a closer look

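Dixon's test was run on 19 sets of 4 libraries (the 10 genes in each population, leaving out Itgal in the PKCd libraries, where all values are 0). In 5 sets the highest library was set apart from the other 3. Chance flags about 1 in 20 where values are spread normally. The test used TPM without a log scale, so 5 of 19 does not show an excess. Itgam stood at 12.1 TPM in SST 1, where the next SST library had 2.60. Itgal stood at 0.125 TPM in SST 4, from 1 read, with 0 in the other SST libraries; with 3 values at 0 any single read would stand apart in this way. Itgb1 stood at 507 TPM in PKCd 4, where the next PKCd library had 134. Itgav stood at 45.7 TPM in SST 2, where the next SST library had 16.6. Itga4 stood at 12.7 TPM in PKCd 3, where the next PKCd library had 3.07.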

How the results depend on the processing

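The count of the 9 tested genes called higher (1 in edgeR) was 5 without a filter, 6 with DESeq2, 4 with limma-voom, 4 with limma on log2(TPM + 1), 2 with limma on log2(TPM + 0.1), 0 in the 8 to 9 week libraries alone and 0 in the 18 to 20 week libraries alone. With each library left out it was 0 to 3, with 0 without SST 2 or SST 3 and 3 without SST 1 (Itgam, Selplg and Siglech); the cause was not tested. Over all genes the count higher was 32, against 218 without a filter, 362 with DESeq2, 45 with limma-voom, 136 and 67 with the TPM tests and 10 to 52 with a library left out. It was 0 of 12348 genes in the 8 to 9 week libraries alone and 0 of 9791 in the 18 to 20 week libraries alone. Of the listed genes 4 were called, against 22 without a filter and 2 to 5 with a library left out. Itgb1 turned to -0.31 without PKCd replicate 4 (adjusted p 0.964), and with each library left out it ran from -0.31 to 0.54. The other tested genes of the 10 kept their sign in all 20 alternatives run, and Selplg was called in 16. limma-voom moved the median of all genes by 0.18, and the 8 to 9 week libraries alone by 0.10. Counts for age class and for the interaction stayed at 0 in the alternatives run. The 5 genes without overlap were the same 5 in TMM-scaled CPM. That alternative and those of the interaction were chosen after seeing the data.

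Titles give both populations replicate numbers 1 to 4. Deviations of same-numbered libraries from their population means correlated at 0.0764, 0.124, 0.0615 and 0.174, so the numbers were not taken to pair the mice. With the replicate block, 1 of the 9 genes (Selplg, adjusted p 0.0284) and 24 of all genes were called. The block could not be fitted for age class, since replicate numbers and age class fall together.

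Low counts limit the SST values of Itgam and Itgb2 in the older libraries (4 to 62 reads) and in SST 2 (29 and 6 reads). They also limit any statement on Itgal. Levels of the markers of other cells, the reporter and the sort were not separated from the genes described, and 4 against 4 libraries limit all tests.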

Other observations

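Itgam and Itga6 each have 2 targets among the deposited transcripts whose reads kallisto divides. The shorter Itgam target (4679 bases, against 4682) held 52.7 to 69.9% of the gene's TPM in 7 libraries and 99.9% in SST 1. The 2 Itga6 targets changed places between libraries. The longer one (6018 bases, against 5888) held over 99.9% in PKCd 1, PKCd 4 and SST 2, 0% in PKCd 2, SST 1 and SST 4, and 60.5 and 32.9% in PKCd 3 and SST 3, so no isoform pattern followed the populations. Of the Itgb5 targets, the longer (3282 bases) held 89.7 to 100% in all 8 libraries. Itgb5 stood at 764 and 749 TPM in the 9-week PKCd libraries and at 246 and 97.9 TPM in the 18-week ones, and its difference between age classes did not pass the test (log2 fold change -1.43 ± 0.71 SE, edgeR adjusted p 0.625).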
